A study of Drosophila melanogaster with 4 samples.

Results

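The regions described here are the Abd-B-GFP peaks at Eip74EF and Eip75B, early genes of the response to the steroid hormone ecdysone, in Drosophila melanogaster larvae. Members were the peaks on chromosome arm 3L whose midpoint lay from 17545000 to 17625000 (Eip74EF and near flanks, 80 kb) or from 17940000 to 18075000 (Eip75B and near flanks, 135 kb) on FlyBase release 5. They numbered 35 of the 2949 peaks in the deposited list, 23 at Eip74EF and 12 at Eip75B. The intervals were selected on the positions of these same peaks. Peak number, density and spacing in them are therefore a description, and so are scores and widths, which come from the same peak calls. Nothing is tested.

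Ecdysone pulses time the larval moults and the start of metamorphosis. The hormone binds a heterodimer of the nuclear receptors EcR and Usp, which switches on a small set of early genes, and their protein products then act on a wider set of late genes. Eip74EF and Eip75B are classical members of the early set and were first seen as puffs on salivary gland polytene chromosomes at the cytological positions in their names. Eip74EF (Dmel_CG32180) encodes transcription factors with an ETS DNA-binding domain, among them the isoforms E74A and E74B. Eip75B (Dmel_CG8127) encodes nuclear receptors that bind heme, among them E75A, E75B and E75C. Abd-B, the tagged protein, is a homeodomain transcription factor, the most posteriorly acting of the Hox proteins, and gives posterior abdominal segments their identity.

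Chromatin immunoprecipitation sequencing (ChIP-seq) was carried out on wandering larvae of the L3 stage of the strain Abd-B-GFP, genotype w; PBac{y[+]-attP-3B}VK00037. Every library came from this strain, whose transgene is a genomic fragment of Abd-B in which GFP takes the place of the stop codon. The series has 2 ChIP libraries made with the rabbit polyclonal antibody GFP ab290 and 2 libraries of input DNA, while the collection protocol names another stock, y; bw cn sp. No library of larvae without the tagged protein was analysed here, although the series title speaks of a mock. The labels give the sex as unknown and name no tissue, so a peak may come from any part of the larva, and few cells with strong binding cannot be told apart from many cells with weak binding. The deposited list has 1 score per peak and none per library. Replicate error and depth are therefore unknown, and a stretch without a peak cannot be called unbound. The score is that of the authors' peak caller, its scale is not named, and it serves here only to rank and describe peaks within the list.

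Eip74EF carried a dense row of peaks of which several were among the strongest of the arm, whereas Eip75B carried fewer peaks, spread over a longer stretch, with a lower highest score. The Eip74EF interval held 287.5 peaks per Mb and the Eip75B interval 88.9 peaks per Mb, against 20.8 peaks per Mb over the rest of 3L (504 peaks, with the arm taken to the end of its last peak). Peaks covered 14.3% of the bases at Eip74EF, 3.51% at Eip75B and 0.836% of the rest of the arm. Together the loci made up 0.879% of the extent of 3L and held 6.49% of its peaks. Eip74EF thus had 3.23 times the peak density and 4.08 times the coverage of Eip75B.

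**Figure D1:**
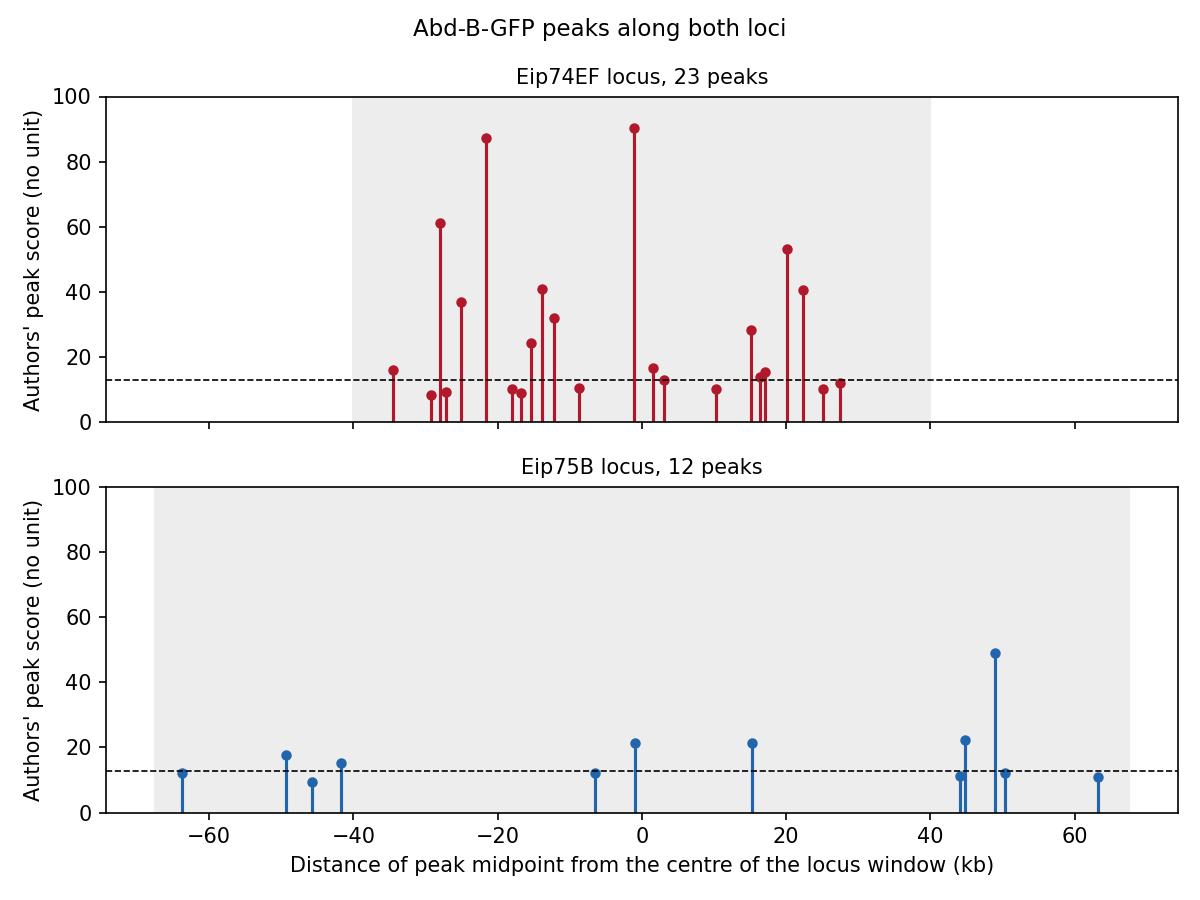
Authors' peak score (vertical axis, no unit) of each peak against the distance of its midpoint from the centre of the interval (horizontal axis, kb), for Eip74EF (top, 23 peaks) and Eip75B (bottom, 12 peaks). Grey shading marks the interval and the dashed line the median score of the rest of 3L, 12.9; the Eip74EF peaks form a closely spaced row reaching 90.4, and those of Eip75B reach 49.1 and leave wide spaces between small groups.

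At Eip74EF the peaks fell into 3 groups when a group was ended by any space above 5 kb. The left group was the longest, with 12 peaks from 17550319 to 17576382, a length of 26.1 kb. It was followed by 3 peaks from 17583468 to 17588202 and then by 8 peaks from 17595151 to 17612554. All 23 peaks belonged to 1 of these groups and none stood alone.

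The left group opened with a peak from 17550319 to 17550734, which had a score of 16.1. A weaker one lay from 17555491 to 17555889 (score 8.36, the lowest of the locus). Between 17556607 and 17557311 came the first strong peak, 705 bp wide, with a score of 61.3 and rank 11 among the 539 peaks of 3L. It had weak neighbours on both sides, since the next peak, from 17557597 to 17558106, scored 9.39 and lay only 285 bp away. From 17559580 to 17560174 a peak scored 37.0. The strongest of the group followed from 17562993 to 17563812, with a width of 820 bp and the score 87.2, rank 5 on the arm. The first part of the group thus held 3 peaks with scores above 30 beside 3 with lower ones.

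After a pair of weak peaks, from 17566885 to 17567109 (score 10.2) and from 17568011 to 17568449 (score 9.10), stronger peaks returned. Peaks from 17569365 to 17569966, from 17570675 to 17571483 and from 17572601 to 17573073 followed each other with scores of 24.3, 41.1 and 31.9, at spaces of 708 and 1117 bp. The group ended with a narrow peak from 17576163 to 17576382 (220 bp, score 10.6). Scores in the left group had a median of 20.2, and 6 of its 12 peaks scored above 22.4, the upper quartile of the list, which 737 peaks exceeded.

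The highest score of both loci lay close to the centre of the Eip74EF interval, in the middle group. This peak ran from 17583468 to 17584329, was 862 bp wide and scored 90.4, rank 4 on 3L and rank 41 in the whole list. It was set off from the left group by 7.09 kb, the widest space between neighbouring peaks of the locus. Its own neighbours to the right scored far lower, with 16.7 (from 17586448 to 17586742) and 13.1 (from 17587897 to 17588202).

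Across the next space of 6.95 kb, the right group began with a weak peak from 17595151 to 17595430 (score 10.1). A stronger one from 17599835 to 17600397 scored 28.4. It was followed by 2 peaks only 190 bp apart, the closest pair of either locus, from 17601154 to 17601579 and from 17601770 to 17602418, with scores of 13.9 and 15.4. The right group's own strongest peak came next, from 17604649 to 17605613. At 965 bp it was the widest peak at Eip74EF, and its score of 53.2 ranked 20 on the arm. Another strong peak from 17607070 to 17607484 scored 40.6. The locus closed with 2 weak and narrow peaks, from 17610009 to 17610224 (216 bp, the narrowest of the locus, score 10.3) and from 17612311 to 17612554 (score 12.2).

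Scores at Eip74EF therefore ranged from 8.36 to 90.4, with a median of 16.1 and quartiles at 10.4 and 38.8. Peaks left of the centre had a median score of 24.3 (13 peaks) and those to the right 14.7 (10 peaks), and strong peaks occurred on both sides. Spaces between neighbours had a median of 1.78 kb, and 20 of 22 were at most 5 kb. On 3L as a whole the median space was 13.9 kb and 32.9% of 538 spaces were at most 5 kb.

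Eip75B had a different layout. Its 12 peaks formed 1 group of 3 on the left and 1 group of 4 on the right, and the other 5 stood more than 5 kb from any neighbour. The first of the locus was a lone weak peak from 17943568 to 17943809 (score 12.3). The left group spanned 8.29 kb. It opened with the widest peak of both loci, from 17957658 to 17958708, which measured 1051 bp but scored only 17.7. The others of this group ran from 17961604 to 17961884 (score 9.53, the lowest at Eip75B) and from 17965497 to 17965942 (score 15.3).

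The middle of Eip75B was sparse. No peak was listed for 34.9 kb after the left group, until a narrow one from 18000873 to 18001079 (207 bp, score 12.3). A peak from 18006308 to 18006793 lay near the centre of the interval and scored 21.3. It was followed at a distance of 15.8 kb by one from 18022622 to 18023012, which scored 21.5. A second long space of 28.5 kb separated this peak from the right group.

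The right group of Eip75B held the strongest peak of the locus within 6.40 kb. It began with the narrowest peak of both loci, from 18051547 to 18051749 (203 bp, score 11.2), and 288 bp further on a peak from 18052038 to 18052535 scored 22.3. The strongest followed from 18056284 to 18056735, with a width of 452 bp and the score 49.1, rank 24 on 3L and 197 in the list. A weak peak from 18057705 to 18057941 (score 12.3) ended the group. The last peak of the locus, from 18070599 to 18070838 (score 10.9), stood 12.7 kb away.

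Scores at Eip75B ranged from 9.53 to 49.1, with a median of 13.8 and quartiles at 12.0 and 21.4. This median differed little from that of the rest of 3L, which was 12.9 with quartiles at 10.3 and 19.1. The score ranges of the loci overlapped: 4 of the 23 Eip74EF peaks scored above the strongest Eip75B peak, and 3 scored below the weakest. The lower quartile and the lowest score were higher at Eip75B, and the median and the highest score were higher at Eip74EF. The medians depended on how peaks were counted. With peaks under 1 kb apart merged, each taking the highest score of those joined, the median was 30.1 at Eip74EF and 16.5 at Eip75B, and with the edges moved in by 10 kb it was 16.1 and 16.5.

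Of the 504 peaks on the rest of 3L, 17.9% were among the 737 highest-scoring of the list. At Eip74EF 10 of 23 peaks (43.5%) were, and at Eip75B 1 of 12 (8.33%). The 1473 peaks with a score above the list's median of 14.2 included 43.5% of those on the rest of 3L, 13 of 23 at Eip74EF (56.5%) and 6 of 12 at Eip75B (50.0%). The distance between Eip74EF and the rest of the arm was larger at the higher of these thresholds. Since the intervals were chosen with these scores known, the shares describe the loci and support no inference.

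Among the 25 highest scores of 3L, 4 lay at Eip74EF and 1 at Eip75B, which held 4.27% and 2.23% of the arm's peaks. Eip74EF also supplied 8 of the 60 peaks of 3L with a score above 30 (13.3%), from 0.327% of its extent. Such scores were reached by 34.8% of the peaks at Eip74EF, 8.33% at Eip75B and 10.1% on the rest of 3L. In the whole list, 463 of 2949 peaks (15.7%) reached them, a larger share than on the rest of 3L. The strong peaks of Eip74EF lay near each other. Of the 8, 7 had another such peak within 10 kb, whereas on the rest of 3L 10 of 51 had one (19.6%). The only Eip75B peak with a score above 30 had none within that distance. The Eip74EF interval is short and was drawn with these peaks known, which alone brings its strong peaks close together. The contrast with the rest of 3L is therefore only a description.

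Peaks at Eip74EF were wider, with a median width of 439 bp and quartiles at 300.5 and 625.5 bp. At Eip75B the median was 336 bp, close to the 332 bp of the rest of 3L. Widths above 500 bp were reached by 10 of 23 peaks at Eip74EF, 1 of 12 at Eip75B and 100 of 504 on the rest of the arm (19.8%). In the whole list, 692 of 2949 peaks (23.5%) were that wide. Peaks with higher scores were also wider at both loci. Spearman's rho across peaks was 0.72 at Eip74EF (n = 23), 0.71 at Eip75B (n = 12) and 0.52 on the rest of 3L (n = 504). Both values of a peak come from the same call, so rho is a description of the calls.

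Part of the greater width at Eip74EF went with its higher scores. Among peaks with scores up to the list's median of 14.2, the median width was 293 bp at Eip74EF (10 peaks), 238.5 bp at Eip75B (6 peaks) and 284 bp on the rest of 3L (285 peaks). Between the list's median and upper quartile it was 416 bp (3 peaks), 486 bp (5 peaks) and 359 bp (129 peaks), in the same order. Among the 737 highest-scoring peaks it was 653.5 bp at Eip74EF (10 peaks), 452 bp at Eip75B (1 peak) and 535 bp on the rest of 3L (90 peaks). The weak peaks of Eip74EF were thus about as wide as other weak peaks of the arm, and its strong peaks were somewhat wider. The strong peaks were not matched on score, since 8 of the 10 at Eip74EF scored above 30, against 51 of the 90. The widest Eip75B peak, of 1051 bp, had a score of 17.7, between the list's median and upper quartile. Peaks of this class on the rest of 3L had a median width of 359 bp and ranged from 202 to 1215 bp, so it lay near the upper end of their range.

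**Figure D2:**
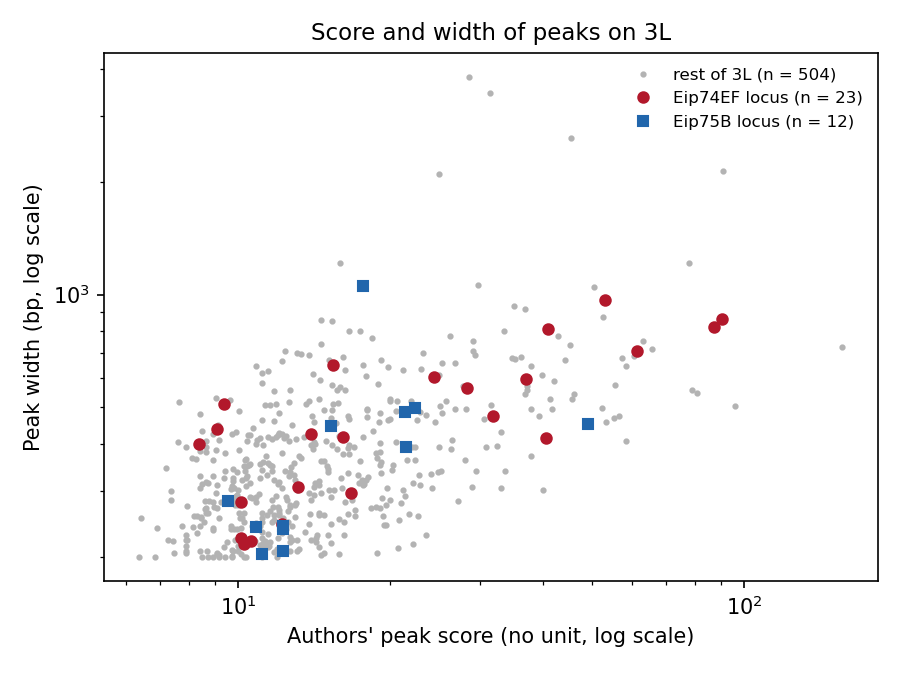
Peak width (vertical axis, bp, log scale) against the authors' peak score (horizontal axis, no unit, log scale) for the peaks of 3L. Red circles are the 23 Eip74EF peaks, blue squares the 12 Eip75B peaks and grey dots the other 504; Eip74EF reaches the upper right of the cloud, with widths up to 965 bp, and the widest Eip75B peak, 1051 bp, lies above most peaks of like score.

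To place the loci on the arm, 3L was divided into adjoining windows of the same length as each interval, leaving out those that touched either locus. None of 301 windows of 80 kb held as many peaks as the 23 of Eip74EF. The fullest held 12, the median was 1, and 110 windows held none. Those without a peak include every window from 22960001 to 23920000, a stretch near the far end of the arm that lowers the density of the comparison set. The fullest were those from 16160001 to 16240000 and from 21200001 to 21280000, each with 12 peaks. No window reached the coverage of Eip74EF, the highest being 7.87%.

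Eip75B was less exceptional by the same measure. Of 177 windows of 135 kb, 4 held 12 peaks or more, and 5 had at least its coverage. The fullest, from 21195001 to 21330000, held 13 peaks, and the median was 2. On a second grid, started at the midpoint of the first window, 3 of 176 windows held 12 peaks or more. There 6 windows had at least the coverage of Eip75B, and the fullest, from 16132501 to 16267500, held 15 peaks. Unlike these windows, the intervals had been drawn around known peaks, which favours them in both comparisons.

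**Figure D3:**
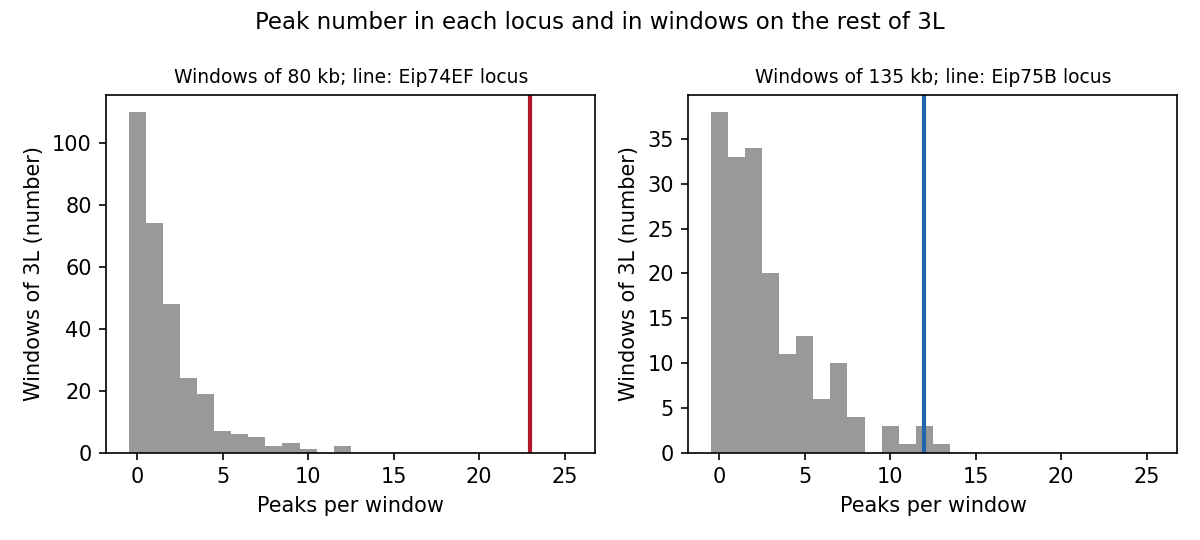
Number of peaks per window (horizontal axis) and number of windows on the rest of 3L (vertical axis, grey bars), for windows of 80 kb (left, 301 windows) and 135 kb (right, 177 windows). The red line marks the 23 peaks of Eip74EF, beyond the fullest window with 12, and the blue line the 12 peaks of Eip75B, which 4 windows equal or exceed.

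The edges of both intervals fell in stretches without listed peaks. To the left of Eip74EF the first outside peak ran from 17526539 to 17526757 (score 11.6) and lay 23.6 kb from the first member. To the right, a peak from 17658316 to 17658719 (score 14.2) lay 45.8 kb from the last. At Eip75B the nearest outside peaks ran from 17915861 to 17916252 (score 22.0, 27.3 kb away) and from 18098763 to 18099254 (score 15.3, 27.9 kb away). The members just inside the edges had scores of 16.1 and 12.2 at Eip74EF and of 12.3 and 10.9 at Eip75B. Between the intervals, 315 kb of the arm held 5 peaks with scores from 12.0 to 22.0, or 15.9 peaks per Mb.

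Runs of peaks as long as the left group of Eip74EF were rare on the chromosome arms. With spaces of at most 5 kb, the arms had 3 runs of 12 or more peaks. The other two lay on 3R from 12755332 to 12848297 (55 peaks) and on X from 1454969 to 1521744 (33 peaks). They were more densely covered than the Eip74EF group, with 35.9% and 42.6% of their bases in peaks against 23.8%. Their median scores were lower, at 14.3 and 12.4 against 20.2. Their highest scores were 172.6 on 3R and 75.7 on X, against 87.2. Median widths were similar, at 512 and 503 bp against 491.5 bp. No gene was assigned here to the runs on 3R and X. The transgene carries a genomic fragment of Abd-B, so a run at that gene may also draw reads from the extra copies. Such a run would not be compared on equal terms, and this was not tested. The right group of Eip74EF, with 8 peaks, was 1 of 8 runs on the arms with at least 8 peaks and the only other such run on 3L. The longest run of Eip75B, with 4 peaks, was 1 of 82 runs of at least 4 on the arms and 1 of 19 on 3L.

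The gene table used here is on release 6, so no peak was assigned to a promoter, exon or intron of either gene. By gene order on that assembly, Eip74EF lies between the protein-coding genes CycT and Vps60 and has no other annotated gene within its span. Eip75B lies between CG5290 and CG44006, and its span holds the protein-coding genes CG32192 and CG42393 and the noncoding genes lncRNA:CR45921 and lncRNA:CR45922. Which of these genes a given peak lies nearest to was not determined.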

How the data were processed

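ChIP-seq data of Abd-B-GFP larvae comprised 2 ChIP and 2 input libraries, grouped by their titles. The file analysed is 1 peak list of the whole series, a GFF version 3 table on FlyBase release 5 made with MACS, per the file headers and source field. BWA, MACS2, the build BDGP5 and the software CASAVA (versions 1.7.0.2 and 1.7.0.3) are listed, per the submitters' processing notes. Thresholds, the control and any pooling of replicates are not given in the sources used here. Each deposited row gives the authors' score and the peak's position. The lowest deposited start is 0, so 1 was added to starts.

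Counts, medians and spaces were computed in Python 3.11.15 with pandas 2.3.3 and numpy 2.4.6, and rho with scipy 1.17.1. The steps that find members, runs and windows were checked on simulated data. The members, the interval edges and the ways of describing them were chosen with earlier results of these data known. Named peaks were, in each locus, the longest run, the 5 highest scores, the widest, narrowest, first and last peaks and those beside the 2 widest spaces. The others were named after their values were seen. With no value per library, no test, replicate error or counting interval could be computed. A list of other ecdysone genes, promoter motifs and protein stretches had been planned and was not run, since no release 5 annotation or sequence table was used here.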

Additional observations from a re-analysis of the deposited data

How the results depend on the processing

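No paired analysis was possible because the list holds no value per library, and no library could be left out. Of 74 alternatives, 53 left a value within 1.5 times the main one or, for medians, within its 95% order-statistic interval, which takes peaks as independent. That interval was wide for the median score at Eip74EF, from 10.6 to 37.0, and so takes in the median of 30.1 with merged peaks and that of 37.0 among the 1473 highest-scoring. At each locus the 53 include leaving out windows without a peak, which could not change the number of windows with as many peaks. The other 21 alternatives moved the value. Among the 1473 highest-scoring peaks Eip74EF kept 13 peaks (162.5 per Mb) and Eip75B 6 (44.4 per Mb), and the longest runs were 4 and 2. Among the 737 highest-scoring they had 10 peaks (125.0 per Mb, 8.51% of bases) and 1 peak (7.41 per Mb, 0.335% of bases), with longest runs of 3 and 1. Median scores there were 40.8 and 49.1, and the median width at Eip74EF was 653.5 bp. These sets were taken by score, which alone lowers counts and raises scores. The longest run of Eip74EF was 7 with peaks under 1 kb apart merged, 5 with spaces up to 2 kb and 23 with spaces up to 10 kb. At Eip75B it was 2 with spaces up to 2 kb. Eip74EF exceeded Eip75B in peak number, density, coverage, width and longest run under each alternative run, but in median score under 4 of 6. The exceptions were the 737 highest-scoring peaks, where Eip75B had 1 peak, and edges moved in by 10 kb (16.1 against 16.5).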
